A study of Mus musculus with 6 samples.

Results

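Kinesins, dyneins and tubulins, the genes for the microtubule motors and for the subunits of the microtubule itself, were examined in RNA of the cochlear duct of the mouse at postnatal day 8. The members were all genes of the table whose symbol begins with Kif and a digit or c, with Tuba, Tubb or Tubg and a digit, or with Dync or Dynl, leaving out Tubb3, and there were 67 of them among 14865 genes. They were 36 kinesin genes, 16 dynein genes and 15 tubulin genes, of which 3 are annotated as processed pseudogenes.

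The labels give 2 genotypes, Gfi1+/+ and Gfi1cre/+, both of strain C57BL/6, with 3 libraries each. GFI1 is a transcription factor of sensory hair cells (HCs) and of blood cells. In the Gfi1cre allele the Cre recombinase sequence takes the place of part of exon 1 and of the exons after it up to exon 5, and by the study's account Cre is active in macrophages and other immune cells as well as in HCs. The line was made on a mixed 129S6/C57BL/6J background and kept on C57BL/6J. A Gfi1+/+ library held RNA of 2 cochleae of 1 mouse, and a Gfi1cre/+ library held RNA of 6 cochleae of 3 mice. The study inferred that its Gfi1cre/+ pups were mainly male and its Gfi1+/+ pups mainly female, so sex, pooling and genotype cannot be told apart.

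Microtubules are polymers of alpha and beta tubulin, and gamma tubulin nucleates them. Most kinesins walk towards the growing end and carry vesicles, organelles or chromosomes, whereas cytoplasmic dynein 1 walks the opposite way and dynein 2 returns cargo from the tip of the cilium. Neurons use a set of motors and tubulin isotypes of their own for transport along axons, dividing cells make a separate set of kinesins for the spindle, and in the organ of Corti the pillar cells and other supporting cells hold dense microtubule bundles. The members were therefore read in 6 classes drawn from general knowledge of the genes: neuronal (13 genes), mitotic (12), ciliary (6), general kinesin (13), general tubulin (8) and general dynein (12), with the 3 pseudogenes apart.

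The depth was 13603908 to 16136022 reads on genes in the Gfi1+/+ libraries and 17939607 to 19359753 in the Gfi1cre/+ libraries. Values are normalized reads, that is, reads divided by a factor for each library, and a gene was tested when it reached 40 normalized reads in at least 1 library, which 65 members and 14455 genes in all did. Gfi1 itself, whose remaining exons are transcribed from the altered copy, stood at 147, 160 and 152 normalized reads in Gfi1+/+ and at 136, 130 and 139 in Gfi1cre/+. The genotypes do not overlap for Gfi1, although reads over the kept exons do not test the deletion. Of all genes tested, 4.07% were lower in Gfi1cre/+ without overlap. The log2 fold change of Gfi1, as Gfi1cre/+ over Gfi1+/+, was -0.18, with a limma p of 0.0945 before and 0.999 after adjustment. The study likewise reported no significant decrease of Gfi1 in its RNA-seq, and a decrease of replaced exons by RT-qPCR in newborn cochleae. Markers of neurons, HCs, supporting cells, Schwann cells, mesenchyme and blood were all detected. Gfi1+/+ replicate 1 stood apart by its neuron markers, with 12933 summed normalized reads over 15 genes against 3571 to 6056 in the other libraries, and Gfi1cre/+ replicate 1 stood apart by its erythroblast markers, with 3041 over 8 genes against 1660 to 2063.

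The sequence feature that set 1 class apart lies at the start of the mitotic genes. The letters TTTGAA, the core of the cell cycle homology region that is known from promoters of genes used in G2 phase and mitosis, were searched on both strands (TTCAAA on the other) in RefSeq promoters of build GRCm38.p6, which run from 250 bases before the start to 50 bases after it. The promoter table matched 49 of the 67 members by symbol, with 55 promoters. The motif was in 10 of 11 promoters of mitotic members and in 3 of 44 promoters of the other members, those of Kif1a, Kif26b and Tubb4b. Over all listed genes the share was 11.5% (1554 of 13506 promoters), and over all 32851 promoters 17.9%. In Kif2c the motif began 103 bases before the start. In 9 of the 11 promoters it lay in the stretch from 40 bases before the start to 35 bases after it, where 2.10% of the promoters of listed genes held it. That stretch was chosen after the positions were seen.

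These stretches are shown for the 9 mitotic genes, and for Kif18a in which the motif is missing from the whole promoter, because the shared letters sit close to the start in each. All are 75 bases long, read 5′ to 3′ on the strand of the gene, and the capitals mark the motif on either strand.
Kif11 (chr19:37376342-37376416, plus strand): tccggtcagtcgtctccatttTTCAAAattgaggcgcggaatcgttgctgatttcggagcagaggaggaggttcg
Kif15 (chr9:122951041-122951115, plus strand): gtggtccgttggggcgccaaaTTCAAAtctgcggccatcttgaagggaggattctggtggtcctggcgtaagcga
Kif22 (chr7:127042386-127042460, minus strand): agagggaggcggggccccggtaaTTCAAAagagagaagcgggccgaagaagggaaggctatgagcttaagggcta
Kif23 (chr9:61946765-61946839, minus strand): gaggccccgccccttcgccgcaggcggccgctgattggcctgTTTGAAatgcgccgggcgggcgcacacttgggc
Kif18b (chr11:102925090-102925164, minus strand): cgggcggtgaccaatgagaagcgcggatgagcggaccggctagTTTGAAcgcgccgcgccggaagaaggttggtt
Kif20b (chr19:34922318-34922392, plus strand): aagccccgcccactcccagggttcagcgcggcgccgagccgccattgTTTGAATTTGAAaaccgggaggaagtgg
Kif4 (chrX:100626025-100626099, plus strand): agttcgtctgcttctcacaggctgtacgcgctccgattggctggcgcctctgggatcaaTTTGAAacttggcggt
Kifc1 (chr17:33890599-33890673, minus strand): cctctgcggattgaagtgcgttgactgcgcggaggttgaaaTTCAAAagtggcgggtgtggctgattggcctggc
Kifc5b (chr17:26917051-26917125, plus strand): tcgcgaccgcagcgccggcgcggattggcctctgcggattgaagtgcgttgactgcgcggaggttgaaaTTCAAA
Kif18a (chr2:109280698-109280772, plus strand): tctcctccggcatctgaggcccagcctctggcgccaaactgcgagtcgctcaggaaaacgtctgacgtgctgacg
Kif20b holds the motif in tandem, and Kifc1 and Kifc5b are near-identical copies whose promoters are not independent. A match to these letters is a description of the sequence and not evidence that a factor binds there.

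Levels of different genes were compared as mean normalized reads per kilobase of exon over the 6 libraries. The mitotic kinesins were the lowest class, with a median of 9.54 and a range of 3.08 to 23.9. The medians of the neuronal, general kinesin and general dynein classes were 208, 159 and 336, and that of the ciliary class was 77.7. The general tubulins had the highest median at 797, and the median of all listed genes was 106. Thus the neuronal median was 21.8 times and the general classes' joint median 24.9 times the mitotic median, and the highest mitotic member (Kif20a, 23.9) was below 12 of the 13 general kinesins.

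**Figure D1:**
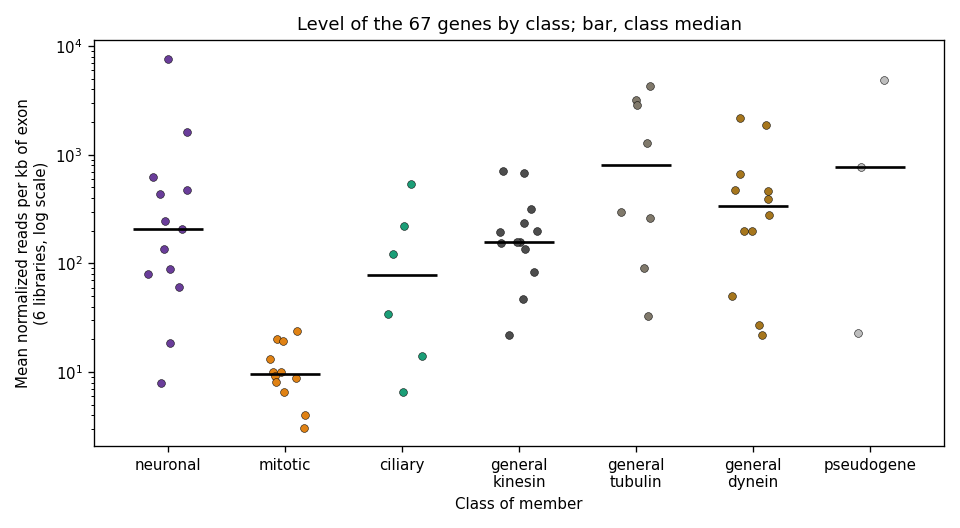
Mean normalized reads per kilobase of exon over the 6 libraries (log axis) of each of the 67 genes, by class, with the class median as a bar. All 12 mitotic kinesins lie below 24, while the most abundant neuronal gene, Tuba1a, reaches 7675.

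Tubulins dominated the members. Tuba1a, the alpha tubulin isotype of young neurons that is also made in many other cells, had the highest level of all members at 7675 normalized reads per kilobase, followed by the pseudogene Dynlt1-ps1 at 4907, Tubb4b at 4261, Tubb5 at 3164 and Tuba1b at 2861. Among the dynein genes the highest were short light chains, Dynlrb1 of the roadblock family at 2176, Dynll2 at 1885 and Dynll1 at 662. The dynein 1 heavy chain Dync1h1 was at 460. Kinesin levels were led by the transport kinesins Kif1c at 714 and Kifc3 at 684, the ciliary kinesin Kif19a at 538 and the ubiquitous kinesin-1 heavy chain Kif5b at 319. Kif17 (30.5 to 39.6 normalized reads), a dendritic and ciliary transport kinesin, and Dynlrb2 (19.8 to 33.3), the second roadblock light chain, stayed below the minimum and were not tested.

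Between genotypes, 0 of the 65 tested members passed limma's test at an adjusted p under 0.05, where 4 of 14455 genes did (0.0277%), and no member had an adjusted p below 0.999. At an unadjusted p under 0.05 there were 2 members, against 3.04% of all genes tested, a share of 3.08%. The 2 were Kif5a and Dynlrb1, both lower in Gfi1cre/+, as 2.02% of all genes tested were at that p. DESeq2 and edgeR on the reads recovered from the values also called 0 members at an adjusted p under 0.05. These counts depended on 1 library: without Gfi1+/+ replicate 3, 18 members (27.7%) had an unadjusted p under 0.05, 7 of them neuronal and all of those 7 lower, and 16.2% of all genes did, while Tubb2b alone of the members reached an adjusted p under 0.05 (0.0432). In Gfi1cre/+ the neuronal tubulin Tubb2b was at 872, 1003 and 954 normalized reads, and in Gfi1+/+ at 1568, 1282 and 816.

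By direction, 30 members were higher and 35 lower in Gfi1cre/+, and the median log2 fold change of the members was -0.010 against -0.00012 over all genes tested. A log2 fold change is given on the log2(value + 1) scale throughout, as Gfi1cre/+ over Gfi1+/+. A size over 0.5 was reached by 1 member, Kif5a, where 2.53% of all genes reached it. Among the tested members, the 3 values of each genotype did not overlap for 1 that was lower in Gfi1cre/+, Kif5a, where 4.07% of genes were of that kind, and for 1 that was higher, Tuba1c, where 3.45% were. Dynlrb2, which was not tested, was also lower without overlap, at 33.3, 29.3 and 28.5 normalized reads in Gfi1+/+ and 27.9, 27.5 and 19.8 in Gfi1cre/+.

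Kif5a (ENSMUSG00000074657, chr10:127225696-127263348 in the mm10 annotation), the kinesin-1 heavy chain that is specific to neurons and carries neurofilaments and mitochondria along axons, had 1384, 593 and 459 normalized reads in the 3 Gfi1+/+ libraries and 409, 416 and 432 in the 3 Gfi1cre/+ libraries. All Gfi1cre/+ values lay under the lowest Gfi1+/+ value, but replicate 1 of Gfi1+/+ was far above the rest, at 2.63 times the mean of the other 2 replicates. The log2 fold change was -0.78 ± 0.33 (SE, n = 3 and 3), with a limma p of 0.0395 before and 0.999 after adjustment. Without Gfi1+/+ replicate 1 it was -0.31, with an unadjusted limma p of 0.0182. The unadjusted limma p was 0.0890, 0.0900 and 0.0763 without Gfi1cre/+ replicate 1, 2 and 3, and 0.0864 without the variance trend.

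Kif5c, the other neuronal kinesin-1 heavy chain, had 796, 392 and 352 normalized reads in Gfi1+/+ and 327, 341 and 372 in Gfi1cre/+. Tubb4a, a beta tubulin of neurons and myelinating cells, had 1700, 930 and 758 in Gfi1+/+ and 750, 813 and 821 in Gfi1cre/+. For both genes the genotypes overlapped and the high value was again Gfi1+/+ replicate 1, at 2.14 and 2.01 times the mean of the other replicates. Kif1a, which hauls synaptic vesicle precursors, had 2870, 1925 and 1727 in Gfi1+/+ and 1476, 1798 and 1823 in Gfi1cre/+, also overlapping. Their log2 fold changes were -0.47 ± 0.26, -0.42 ± 0.24 and -0.33 ± 0.17 (SE, n = 3 and 3), with unadjusted limma p of 0.101, 0.114 and 0.0853.

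The abundant isotypes of the class differed less. Tuba1a had 15754, 13984 and 12637 normalized reads in Gfi1+/+ and 13328, 13696 and 13627 in Gfi1cre/+, a log2 fold change of -0.054 ± 0.083. Tubb2a, one of the neuronal beta tubulins, had 3571, 2635 and 2233 against 2297, 2325 and 2474, a log2 fold change of -0.22 ± 0.14. Tuba4a, an alpha tubulin of mature neurons and of muscle and platelets, had 2398, 2406 and 2208 against 2363, 2213 and 2233, a log2 fold change of -0.042 ± 0.058. The genotypes of all 3 overlapped. Dync1i1, the neuronal intermediate chain of dynein 1, was the only tested member of the class with a positive value, 0.008. The other members were Kif21b, Kifc2 and Kif3c, at log2 fold changes of -0.26, -0.17 and -0.051.

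**Figure D2:**
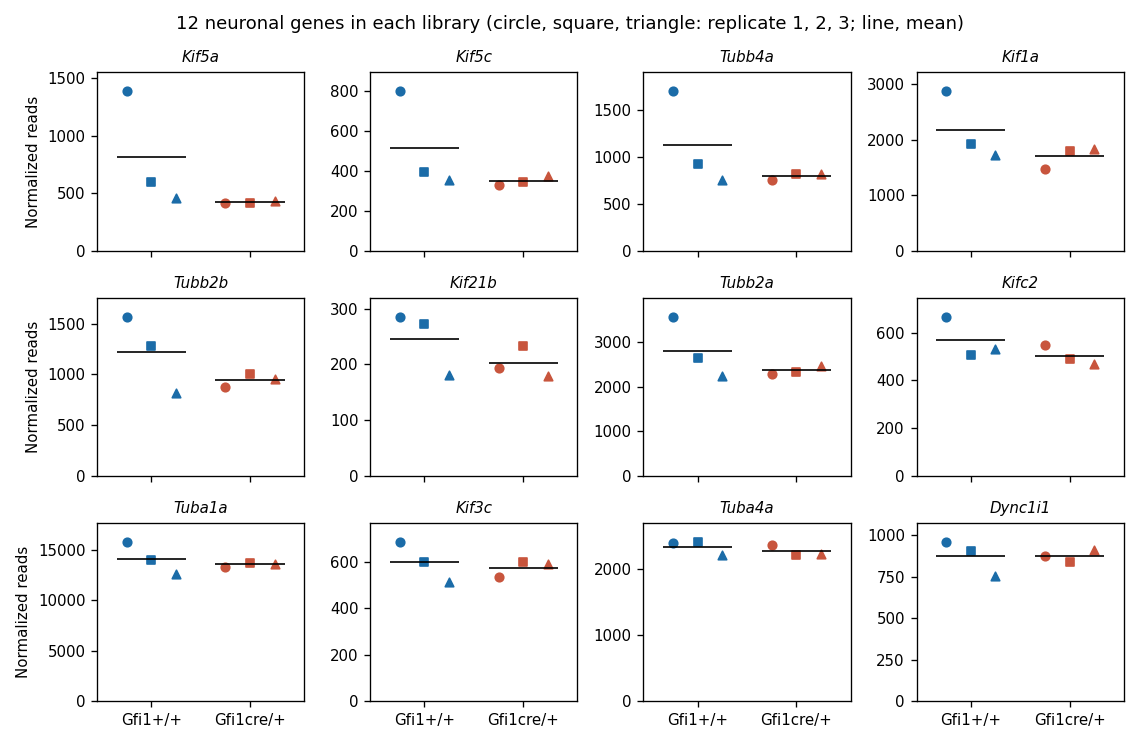
Normalized reads of the 12 tested neuronal genes in each library, in order of log2 fold change, with the mean of each genotype as a line (n = 3 each). Gfi1+/+ replicate 1 (circle) is the highest library for 11 of the 12 genes and the Gfi1cre/+ values lie close together.

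As a class, 11 of the 12 tested neuronal members were lower in Gfi1cre/+, with a median log2 fold change of -0.24, a range of -0.78 to 0.008 and 1 unadjusted p under 0.05. The median was 0.033 for the mitotic members and -0.0062 for the 32 tested members of the general classes together, so the neuronal median lay 0.28 under the mitotic and 0.24 under the general one on the log2 scale. These differences of medians carry no test, since members of a class share their libraries. Gfi1+/+ replicate 1 was the highest of the 6 libraries for 11 of the 12 neuronal members, against 24.9% of all genes tested. Without that library the neuronal median was -0.067, with 9 of 12 members lower, and without Gfi1+/+ replicate 3 it was -0.42, with 12 of 12 lower. The spread between libraries differed between the groups as well, and the median SD of the neuronal members was 0.353 between Gfi1+/+ libraries and 0.081 between Gfi1cre/+ libraries on the log2 scale, where it was 0.119 and 0.074 over all genes tested. A Gfi1+/+ library held 1 mouse and a Gfi1cre/+ library 3, so pooling and genotype cannot be told apart in this spread.

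**Figure D3:**
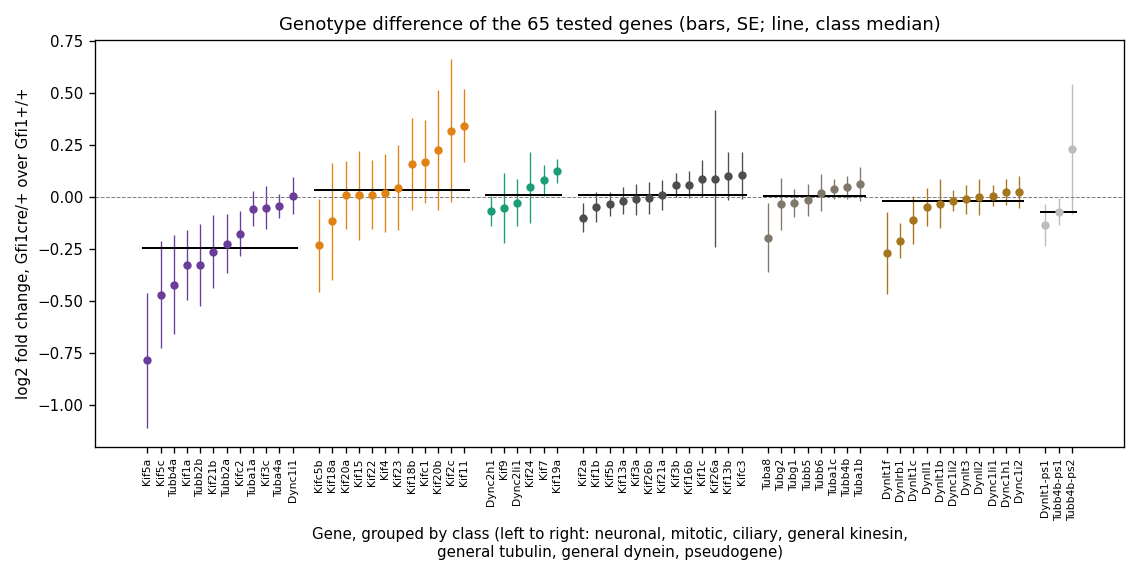
Log2 fold change of Gfi1cre/+ over Gfi1+/+ with its SE for each of the 65 tested genes, ordered within its class, and the class median as a line. Neuronal genes extend down to -0.78 with wide errors, and the general classes lie within 0.27 of 0.

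The summed level of a class in each library was compared by an exact permutation test (two-sided; 3 against 3 libraries cannot give a p below 0.1). The 7 neuronal kinesins together had 911, 587 and 527 normalized reads per kilobase in Gfi1+/+ and 496, 531 and 531 in Gfi1cre/+ (exact permutation p = 0.3). The 5 neuronal tubulins had 13050, 11019 and 9689 against 10174, 10440 and 10482 (exact permutation p = 0.5). Thus the Gfi1cre/+ libraries lay inside or near the range of Gfi1+/+ replicates 2 and 3.

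Neuron markers moved with these values. Of 14 tested neuron markers, 14 were lower in Gfi1cre/+ and 5 had an unadjusted limma p under 0.05. Of all genes tested, 50.1% were lower and 3.04% had such a p. The markers had a median log2 fold change of -0.78, and their summed normalized reads were 12933, 6056 and 3974 in Gfi1+/+ and 3571, 4210 and 4510 in Gfi1cre/+. Tubb3, left out of the members by their definition, was at 1469, 809 and 558 against 540, 615 and 618, which is the same order of the 6 libraries as that of Tubb4a. No listed marker was at 0 throughout. Schwann cell markers, with 9 genes listed, summed to 22066 to 41032 in Gfi1+/+, highest in replicate 1, and to 17977 to 27810 in Gfi1cre/+. In RNA of a whole duct, fewer neurons and less RNA per neuron cannot be told apart, and the part of neuron content in the class difference was not tested.

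**Figure D4:**
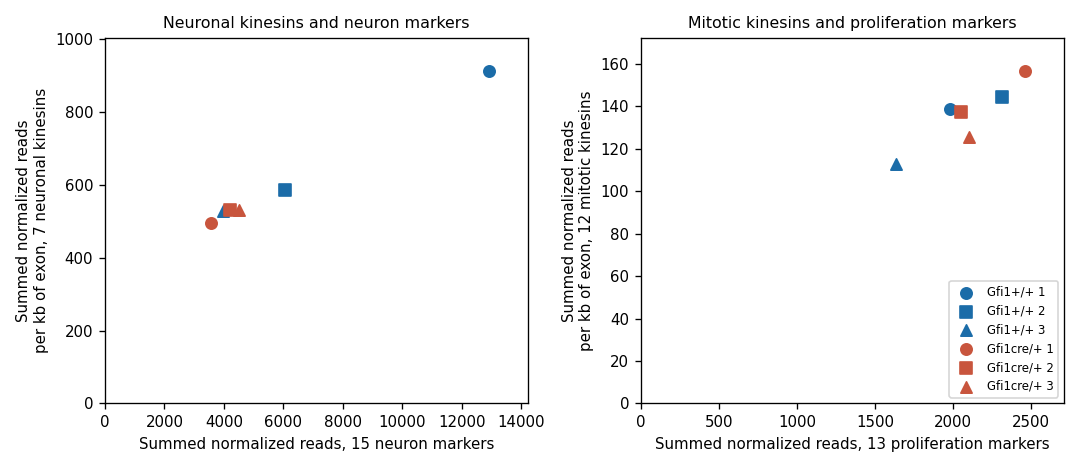
Left, summed normalized reads per kilobase of the 7 neuronal kinesins against summed normalized reads of 15 neuron markers; right, the 12 mitotic kinesins against 13 proliferation markers; 1 point a library. Gfi1+/+ replicate 1 lies far out on the left at 911 and 12933, and Gfi1cre/+ replicate 1 is the highest point on the right.

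The mitotic kinesins carried 20 to 136 reads a library. Kif11, the tetrameric kinesin that pushes spindle poles apart, was at 77.8, 69.1 and 52.7 normalized reads in Gfi1+/+ and at 89.6, 84.3 and 77.4 in Gfi1cre/+, with the lowest Gfi1cre/+ value just under the highest Gfi1+/+ value. Its log2 fold change of 0.34 ± 0.18 (SE, n = 3 and 3) was the largest of the class, with an unadjusted limma p of 0.0831. Over the alternatives the log2 fold change was positive throughout and the unadjusted p ranged from 0.028 (0.46, without Gfi1+/+ replicate 1) to 0.269 (0.19, without Gfi1+/+ replicate 3). It was under 0.05 also after cyclic loess (0.0469) and quantile normalization (0.0305), and was 0.0904 in edgeR and 0.177 in DESeq2.

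Kif20a, which acts at the central spindle in cytokinesis, was at 111, 119 and 81.2 against 97.5, 99.4 and 113. Kif22, a chromosome-arm kinesin, was at 91.3, 101 and 88.6 against 118, 88.8 and 79.3. Kifc1, a minus-end motor that bundles spindle poles, was at 74.1, 62.8 and 55.9 against 92.3, 64.8 and 62.3. Their log2 fold changes were 0.009, 0.011 and 0.17, and the genotypes overlapped for each. The remaining 8 mitotic members had 24.7 to 84.8 normalized reads in any library.

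Of the 12 mitotic members 10 were higher in Gfi1cre/+, with a range from -0.23 (Kifc5b) to 0.34 and no unadjusted p under 0.05. The direction was not stable over libraries: without Gfi1cre/+ replicate 1, 5 of 12 were higher and the median was -0.0048. Gfi1cre/+ replicate 1 was the highest library for 5 of the 12, against 1597 of the 14455 genes tested, and Gfi1+/+ replicate 3 the lowest for 6 of the 12, against 22.2%. The median SD of the class was 0.256 between Gfi1+/+ and 0.141 between Gfi1cre/+ libraries, and counting error alone gives 0.141 to 0.263 for these genes. The class sum per kilobase was 139, 145 and 113 in Gfi1+/+ and 156, 137 and 126 in Gfi1cre/+ (exact permutation p = 0.7).

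Of 13 proliferation markers, 9 were higher in Gfi1cre/+ and 3 had an unadjusted limma p under 0.05, which 3.04% of all genes tested had. These markers summed to 1636 to 2314 in Gfi1+/+ and 2051 to 2463 in Gfi1cre/+. Erythroblast markers were higher in Gfi1cre/+ for 7 of 8 genes, 5 with an unadjusted p under 0.05, and summed to 1660 to 1770 in Gfi1+/+ and 1751 to 3041 in Gfi1cre/+. Both lists were highest in Gfi1cre/+ replicate 1, as were 5 mitotic kinesins, and the part of either in the mitotic values was not tested.

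Among the ciliary members Kif19a (chr11:114765388-114790739), which trims microtubules at the tip of motile cilia, was by far the most abundant. It had 2014, 2053 and 2217 normalized reads in Gfi1+/+ and 2190, 2310 and 2353 in Gfi1cre/+, overlapping by 1 library of each genotype. The log2 fold change was 0.13 ± 0.059 (SE, n = 3 and 3), with an unadjusted limma p of 0.0616. Dync2li1, a light intermediate chain of dynein 2, had 486, 424 and 353 against 436, 381 and 416, and Kif7, a regulator of Hedgehog signalling at the tip of primary cilia, had 493, 536 and 590 against 568, 565 and 574. Dync2h1, Kif9 and Kif24 were lower, at 34.3, 14.1 and 6.52 normalized reads per kilobase. Of the 6 members 3 were higher and 3 lower in Gfi1cre/+, within -0.066 to 0.13 on the log2 scale. The class sum per kilobase, with Kif19a as its largest part, did not overlap between genotypes at 919, 907 and 916 against 948, 952 and 979 (exact permutation p = 0.1, the smallest possible), a ratio of 1.05.

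In the general kinesin class 7 of 13 members were higher in Gfi1cre/+, with a range of -0.097 to 0.10 on the log2 scale, and no unadjusted p was under 0.05. Kif1c, a transport kinesin found in most cells, had 4628, 4700 and 5809 normalized reads in Gfi1+/+ and 5113, 5376 and 5523 in Gfi1cre/+. Kifc3, a minus-end motor at cell junctions, had 3178, 3079 and 4274 against 3747, 3644 and 3808, and Kif5b had 2565, 2440 and 2724 against 2456, 2566 and 2534. For each of the 3 the genotypes overlapped and Gfi1+/+ replicate 3 was the highest library, as it was for 7 of the 13 members against 23.1% of all genes tested. Kif26a, an atypical kinesin without motor activity that was chosen after its values were seen, had 562 in that library against 210 and 222 in the other Gfi1+/+ libraries and 280, 387 and 291 in Gfi1cre/+. The sum over markers of mesenchyme and bone was also highest there, at 553402 normalized reads against 410154 to 522738, of which Col2a1 alone gave 375917. Col1a2, Ibsp, Sp7, Bglap and Runx2 were also highest in that library. In contrast, Col1a1, Tbx18 and Pou3f4 were highest in other libraries, and Col3a1 was at its lowest there. The part of these markers in the kinesin values was not tested.

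Of the 8 general tubulins 4 were higher and 4 lower in Gfi1cre/+, with a range of -0.19 to 0.063 and no unadjusted p under 0.05. Tubb4b had 8743, 8456 and 9048 normalized reads in Gfi1+/+ and 8980, 9082 and 9067 in Gfi1cre/+. Tubb5, a beta tubulin of dividing and many other cells, had 10871, 11464 and 9428 against 10205, 10724 and 10460, and Tuba1b had 5833, 5260 and 4676 against 5344, 5697 and 5374. Tuba1c, whose genotypes did not overlap, had 2878, 2931 and 2955 against 3013, 3021 and 2963, a log2 fold change of only 0.038 ± 0.048 with an unadjusted limma p of 0.451. Tuba8, a divergent alpha tubulin, was lowest at 61.3 to 91.3 and had the largest log2 fold change of the class, -0.19 ± 0.17.

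In the general dynein class 7 of the 11 tested members were lower in Gfi1cre/+, with a range of -0.27 to 0.027. Dynlrb1 (chr2:155236533-155250277), a roadblock light chain of cytoplasmic dynein, had 2561, 2379 and 2124 normalized reads in Gfi1+/+ and 2108, 1861 and 2140 in Gfi1cre/+. The genotypes overlapped by 1 library each, and the log2 fold change was -0.21 ± 0.082 (SE, n = 3 and 3), with a limma p of 0.0322 before and 0.999 after adjustment. The unadjusted limma p was 0.106, 0.0735 and 0.137 without Gfi1+/+ replicate 1, Gfi1+/+ replicate 2 and Gfi1cre/+ replicate 2, and 0.0678 without the variance trend. Dynll2 and Dynll1, the LC8 light chains that also bind many partners outside dynein, had 5261, 4504 and 5739 against 5289, 4946 and 5200, and 2954, 2681 and 2242 against 2597, 2437 and 2546. The heavy chain Dync1h1 had 6822, 7153 and 7415 against 6978, 7725 and 7088, and the light intermediate chain Dync1li1 had 1065, 1100 and 1082 against 1096, 1084 and 1086, so the core chains overlapped between genotypes. Dynlt1f, a Tctex light chain, had the largest log2 fold change of the class at -0.27 ± 0.20, from 63.2 to 100 normalized reads.

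Shares of isotypes within a family do not depend on the scaling of a library, and 19 shares of 5 families were compared by exact permutation tests, with adjusted p (Benjamini-Hochberg) of 0.633 or more for each. Alpha tubulin per kilobase was 62.2% ± 1.02 Tuba1a in Gfi1+/+ and 60.7% ± 0.462 in Gfi1cre/+ (SD, n = 3 each; exact permutation p = 0.1), and 22.3% ± 0.382 and 23.6% ± 0.516 Tuba1b (exact permutation p = 0.1). Both pairs of groups did not overlap, with a difference of -1.54 percentage points for Tuba1a and 1.29 for Tuba1b. Beta tubulin was led by Tubb4b, at 36.6%, 38.8% and 45.5% in Gfi1+/+ and 43.9%, 42.9% and 42.9% in Gfi1cre/+, and by Tubb5, at 28.6% to 33.0% in Gfi1+/+ and 31.1% to 31.8% in Gfi1cre/+. The 3 neuronal beta tubulins, Tubb2a, Tubb2b and Tubb4a, each had their highest share in Gfi1+/+ replicate 1, where Tubb2a made up 19.4% against 14.2% to 15.7% elsewhere.

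The kinesin-1 heavy chains had the largest differences in share. Kif5a made up 31.4%, 19.0% and 14.4% of the family per kilobase in Gfi1+/+ and 14.2%, 13.9% and 14.3% in Gfi1cre/+, without overlap (exact permutation p = 0.1). Kif5b made up 50.9%, 68.6% and 74.8% against 74.7%, 75.0% and 73.6% (exact permutation p = 0.3), with replicate 1 again apart. In the kinesin-2 motors Kif3b led with 43.3% to 49.2% over the 6 libraries, followed by Kif3a with 36.9% to 40.5% and the neuronal Kif3c with 13.9% to 17.5%. Of the dynein 1 intermediate chains the neuronal Dync1i1 made up 54.0% to 55.8% in every library per kilobase of exon. Which chain leads depends on the length used, because the exons span 3572 bases in Dync1i1 and 8280 in Dync1i2. Per base of the longest transcript, of 2718 and 4523 bases, Dync1i2 is the higher. The mean normalized reads in Gfi1+/+ were 872 for Dync1i1 and 1635 for Dync1i2. Without Gfi1+/+ replicate 1 the difference of the Kif5a share was -2.57 percentage points and with all libraries it was -7.46.

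**Figure D5:**
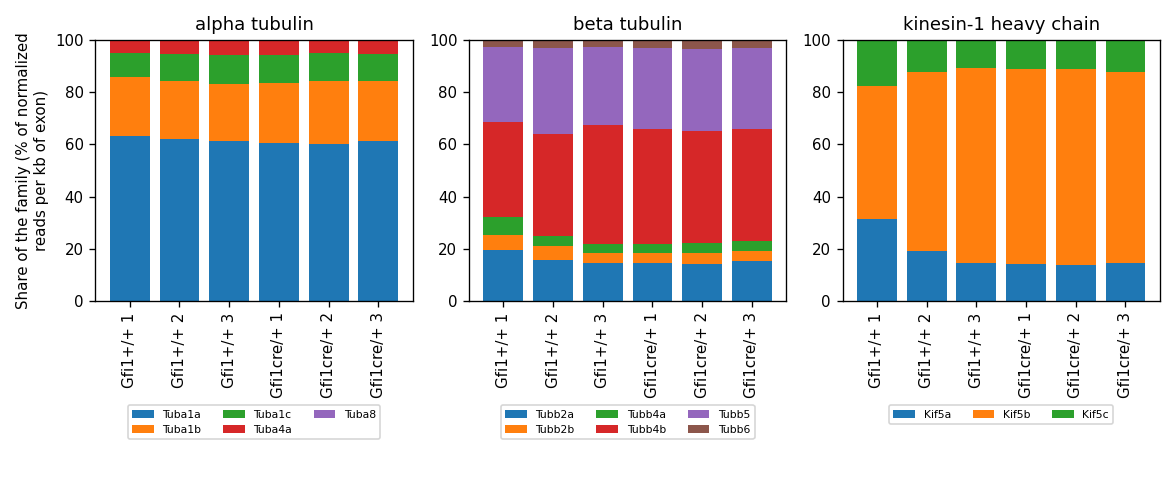
Share of each isotype in its family, as % of normalized reads per kilobase of exon, in each of the 6 libraries, for alpha tubulins, beta tubulins and kinesin-1 heavy chains. Kif5a makes up 31.4% in Gfi1+/+ replicate 1 and 14.4% in Gfi1+/+ replicate 3, next to 13.9% to 14.3% in Gfi1cre/+, and the alpha tubulin shares are nearly level.

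How far these isotypes can be told apart by reads follows from their sequences. The coding sequence is 98.3% identical between Tuba1a and Tuba1b, 96.5% between Tubb2a and Tubb2b, 98.4% between Kifc1 and Kifc5b and 72.2% between Kif5a and Kif5c. Of all stretches of 100 bases in the longest transcript, 65.1% of Tuba1a, 69.5% of Tuba1b, 53.4% of Tuba1c, 36.9% of Tubb2a and 29.2% of Tubb4b occur unchanged in a transcript of another gene. Tuba4a, Tuba8, Kif5a, Kif5b, Kif5c, Kif1a and Tubb4a have none. The authors kept reads with a single place, so values of Tuba1a, Tuba1b, Tuba1c, Tubb2a, Tubb2b and Tubb4b rest on the parts that differ. The end of the coding sequence of a beta tubulin encodes the acidic tail, the best known difference between isotypes, and it is shown here from base 1267 of the coding sequence to the stop codon, with capitals for bases that differ from Tubb5 in the alignment.
Tubb5 (gene at chr17:35833921-35838306): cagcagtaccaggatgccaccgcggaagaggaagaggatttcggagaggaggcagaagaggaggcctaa
Tubb2a (gene at chr13:34074274-34078007): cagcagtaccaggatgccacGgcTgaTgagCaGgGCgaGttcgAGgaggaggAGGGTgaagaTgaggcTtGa
Tubb2b (gene at chr13:34126748-34130466): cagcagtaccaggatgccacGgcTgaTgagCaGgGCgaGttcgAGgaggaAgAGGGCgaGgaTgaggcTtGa
Tubb4a (gene at chr17:57080066-57087782): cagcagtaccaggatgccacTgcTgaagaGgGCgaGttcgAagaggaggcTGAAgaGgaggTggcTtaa
Tubb4b (gene at chr2:25222160-25224702): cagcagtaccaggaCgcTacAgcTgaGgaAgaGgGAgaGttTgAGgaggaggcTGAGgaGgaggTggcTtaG
Tubb2a and Tubb2b, with 18 and 20 such bases, have nearly the same end, whereas Tubb4a and Tubb4b carry 14 and 21. Inserted bases are in capitals and counted, but bases of Tubb5 that an isotype lacks, as Tubb4a does, are neither marked nor counted. The counts therefore do not rank the isotypes by their distance from Tubb5.

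The processed pseudogenes showed the same limit at its extreme. Dynlt1-ps1 (chr6:135349408-135349749, minus strand), a copy without introns of a Tctex dynein light chain, had 2086, 1676 and 1525 normalized reads in Gfi1+/+ and 1567, 1553 and 1662 in Gfi1cre/+, overlapping, with a log2 fold change of -0.13 ± 0.10. The protein-coding genes Dynlt1b, Dynlt1c and Dynlt1f had 63.2 to 164 in any library. Every stretch of 100 bases of Dynlt1-ps1 also occurs in Dynlt1a, which is not among the listed genes and so has no values here. Of the stretches of the 3 coding genes, 76.3% to 89.5% occur in another gene. The division of reads among these copies is therefore uncertain. Over the whole coding sequence Dynlt1c and Dynlt1f do not differ from Dynlt1-ps1, and Dynlt1b differs at 1 base, C21A, counted from the first base of the start codon. The first 90 bases show it in capitals.
Dynlt1-ps1 (gene at chr6:135349408-135349749): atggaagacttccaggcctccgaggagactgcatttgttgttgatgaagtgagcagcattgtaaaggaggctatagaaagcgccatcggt
Dynlt1b (gene at chr17:6430112-6436296): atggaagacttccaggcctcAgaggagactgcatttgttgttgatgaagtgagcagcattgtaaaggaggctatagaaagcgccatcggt
Tubb4b-ps1 (chr5:7179365-7180700), whose sequence is 98.6% identical to the coding sequence of Tubb4b, had 1048, 1055 and 1038 normalized reads in Gfi1+/+ and 978, 934 and 1089 in Gfi1cre/+, and Tubb4b-ps2 (chr1:24594087-24595423) had 22.2 to 40.9 over the 6 libraries with a log2 fold change of 0.23 ± 0.31. The genotypes of both overlapped.

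Reads can also be shared where genes overlap. Over 14% of the exon bases overlap exons of another gene in 10 members, most in Tuba4a (37.3%, Stk16 on the other strand), Kif3c (35.3%, an antisense gene) and Kif20a (29.3%, Cdc23). In 8 of the 10 the other gene is on the other strand, and the sources used here do not say whether counting used the strand, without which such reads cannot be told apart. In Tuba1a (26.2%) and Tuba1b (22.7%), whose shares of alpha tubulin are compared above, the other gene is Gm49450 on the same strand, where strand cannot separate the reads.

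The partners of the motors were read in 4 lists. Of 10 kinesin adaptors, 17 dynein cofactors and 21 genes of tubulin folding and modification, none had an unadjusted limma p under 0.05, and the median log2 fold changes were -0.031, 0.0064 and -0.016. The smallest unadjusted p among the adaptors were those of Kifap3, which ties kinesin-2 to its cargo, and of Klc4, a kinesin light chain, with log2 fold changes of -0.14 and 0.10 and unadjusted limma p of 0.104 and 0.255. Among the cofactors they were those of Dctn6, a dynactin subunit, and Bicd2, a dynein adaptor, with log2 fold changes of -0.14 and 0.11 and unadjusted limma p of 0.0912 and 0.136. In the last list they were those of Tbca and Ttl, a tubulin chaperone and the tubulin tyrosine ligase, with log2 fold changes of -0.18 and -0.087 and unadjusted limma p of 0.243 and 0.301.

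Of the 20 microtubule-associated proteins, 3 had an unadjusted limma p under 0.05 and were lower in Gfi1cre/+, 1 had one and was higher, and the adjusted p was 0.999 for each of them. Of all genes tested, 3.04% had such an unadjusted p, and 2.02% had one and were lower. The 3 lower ones were proteins of the axon and neuron. Other neuronal genes of the list, chosen after their values were seen, had larger p. Map2 and Stmn3 had log2 fold changes of -0.19 and -0.24 with unadjusted limma p of 0.0767 and 0.116. Dcx, Map1b and Dclk1 had -0.19, -0.070 and 0.069 with 0.686, 0.521 and 0.271. Mapt, the tau protein, had 576, 339 and 271 normalized reads in Gfi1+/+ and 175, 236 and 194 in Gfi1cre/+, without overlap, a log2 fold change of -0.90 ± 0.24 with an unadjusted p of 0.00449 by limma. Stmn4, a neuronal stathmin, had 143, 30.4 and 24.3 against 7.83, 15.1 and 11.3, also without overlap and with Gfi1+/+ replicate 1 far above the rest, a log2 fold change of -2.01 ± 0.62 with an unadjusted p of 0.0104 by limma.

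The other 2 genes with an unadjusted limma p under 0.05 fall outside the naming rule and were chosen after their values were seen. Map1a, a stabilizer of axonal and dendritic microtubules, had 1821, 834 and 688 against 515, 590 and 697, and Stmn1, a stathmin of dividing and young cells, had 231, 221 and 335 against 320, 357 and 317. Both overlapped between genotypes. The median of the list was -0.071, with 15 of 20 genes lower, where 50.1% of all genes tested were lower.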

How the data were processed

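RNA of the cochlear duct was sequenced (polyA-selected, paired reads), and per the study's methods the authors aligned reads to mm10 with TopHat, counted uniquely placed reads with HTSeq, kept genes with at least 40 reads and normalized them. The deposited values are a signal, reads divided by a factor per library: 100% came out as whole reads within 0.006 normalized reads once multiplied by size factors of 0.810 to 1.15, although the methods name quantile normalization. Depth was 13603908 to 19359753 reads, so 3 reads correspond to 2.61 to 3.70 normalized reads. No value column was left unused.

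A gene that reached 40 normalized reads in any library was tested by limma 3.58.1 (R 4.3.3) on log2(value + 1) with a trended variance, genotype as the only term, two-sided, and Benjamini-Hochberg adjustment over 14455 genes. The p-values measure the spread between 3 libraries a genotype. Class sums and isotype shares were compared by exact permutation tests. Lengths, positions and transcripts came from GENCODE vM21 (14791 identifiers and all 67 members matched) and promoters from RefSeq (GRCm38.p6). Alternatives were pseudocounts of 0.1 and 10, no minimum (every listed gene), a minimum mean of 200, limma without trend, cyclic loess, quantile normalization, edgeR 4.0.16 and DESeq2 1.42.0 on the recovered reads, a replicate block, transcript length, and each library left out. The fits were tested on simulated data.

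The members, classes and lists were chosen with earlier results of these data known. Genes were named by rule: in each class the 3 with most normalized reads per kilobase and the tested one with the largest absolute log2 fold change, every member with an unadjusted p under 0.05 or not tested, and in each list of partners the 2 with the smallest p; other members are named to describe a class or a family of isotypes and were chosen after their values were seen.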

Additional observations from a re-analysis of the deposited data

How the results depend on the processing

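The count of members at an adjusted p under 0.05 stayed at 0 under each alternative but 1, and leaving out 1 library gave 0 to 1, the 1 without Gfi1+/+ replicate 3. The count at an unadjusted p under 0.05 was 0 in limma without trend and 0 to 18 with 1 library left out, the most without Gfi1+/+ replicate 3. The count over a log2 size of 0.5 was 3 in edgeR and 3 in DESeq2 and 0 to 5 with 1 library left out, 0 without Gfi1+/+ replicate 1. Quantile normalization gave 4 members without overlap, against 1 lower and 1 higher in the main setting. The shares of all genes for this count and for the size counts in edgeR and DESeq2 are not given here. These counts are therefore not a result about the members. The ciliary median was 0.052 under quantile normalization and -0.035 to 0.036 with 1 library left out, and the general dynein median -0.063 to -0.00080. With 1 library left out the median of the microtubule-associated proteins was -0.083 to -0.025 and that of tubulin folding and modification -0.025 to 0.020. The neuronal median kept its sign, at -0.42 to -0.067, and lay under the general median by 0.081 to 0.41.

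A changed sign with 1 library left out occurred for Tuba1a (-0.13 to 0.028), Kif20a (-0.16 to 0.12), Kifc1 (-0.0071 to 0.28), Kif22 (-0.15 to 0.13), Dync2li1 (-0.15 to 0.084), Kif5b (-0.070 to 0.0098), Tubb5 (-0.094 to 0.047), Tuba1b (-0.018 to 0.14), Dynll2 (-0.095 to 0.079) and Dynll1 (-0.16 to 0.043). Kif20a was also -0.0061 in edgeR and -0.0068 in DESeq2. Dynll2 was -0.019 after cyclic loess, -0.0035 after quantile normalization, -0.0058 in edgeR and -0.0064 in DESeq2. The cause was not tested. A mean of at least 200 left no mitotic member.

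With a replicate block, 3 members (4.62%) had an unadjusted p under 0.05 (Kif5a, Dynlrb1 and Kifc2), where 3.20% of all genes tested did, and 0 an adjusted one. The labels do not state that same-numbered libraries are paired. The deviations of same-numbered libraries from their genotype means correlated at -0.0944, 0.107 and -0.0326, which cannot decide whether they shared a litter or batch. The mitotic values rest on 20 to 136 reads a library, and 3 libraries a genotype limit the precision of all others.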
